A study of Canis lupus familiaris with 51 samples.

Results

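Genes of cytokinesis and of the spindle midzone were followed across 51 canine cutaneous mast cell tumors (MCTs), each hybridized to 1 one-color Agilent array. The genes sought, 10 in number, were PRC1, NUSAP1, ANLN, ECT2, RACGAP1, CEP55, CIT, TPX2, ASPM and HMMR, and every probe named for 1 of them was taken. This gave 13 of the 43603 probes on the array, for 9 genes. No probe was named for CIT, which was therefore not analysed here. PRC1, ANLN, ECT2 and TPX2 had a pair of probes each, called brighter and dimmer below after their mean signal, and the other 5 genes had 1. NUSAP1 was listed under a transcript cluster name and CEP55 under a gene ID that RefSeq pairs with that symbol.

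The tumors were excised from dogs of many breeds aged 3 to 14 years, 30 female and 19 male, with the sex of 2 not given. The study set a reference class for 18 of them from histological grade and mitotic index. Of these, 5 were undifferentiated reference samples (Patnaik grade 2 in 2 tumors and grade 3 in 3). The remaining 13 were differentiated reference samples (Patnaik grade 1 or 2). The class of the other 33 was predicted by the study from these same arrays, 7 as undifferentiated and 26 as differentiated, with PRC1 and NUSAP1 among its marker genes. Levels by predicted class are therefore given as a description, with no test. Mitoses were counted in setting the reference classes, so a difference in genes used in mitosis between those classes is not independent of the way the classes were made. Each sample is 1 tumor of 1 dog, and each is a piece of whole tumor tissue.

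Cytokinesis is the step that cuts a dividing cell into its daughters. PRC1 bundles the antiparallel microtubules of the central spindle, or midzone. RACGAP1, a subunit of the centralspindlin complex, sits on these microtubules and recruits ECT2, the exchange factor that switches on the small GTPase RhoA at the cell equator, where the scaffold protein anillin (ANLN) holds the contractile ring of actin and myosin together. CEP55 gathers the abscission machinery at the midbody, the last bridge between the daughters. TPX2 promotes microtubule assembly and activates the kinase Aurora A, NUSAP1 bundles microtubules near the chromosomes, ASPM acts at the spindle poles, and HMMR (RHAMM) is a hyaluronan receptor that also works as a spindle protein. Mast cells are resident tissue cells that seldom divide, and the frequency of mitotic figures is part of the usual grading of their tumors.

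The sequences that matter most here are those of ECT2, whose probes gave different results, and of NUSAP1 and HMMR, which were each measured by a single probe whose recorded position spans far more than its own length. Each is a 60-base probe, read 5′ to 3′ as the scanner output lists it. A stretch of 30 bases is shown for ECT2, and capitals mark the longest stretch shared with any other probe on the array on either strand.
ECT2, brighter probe, bases 31 to 60: ctttgaaagaagaaGTCATACTTTAAGCAG
ECT2, dimmer probe, bases 19 to 48: acttggtgAAAGCTGGAAAGAAtatagata
NUSAP1, bases 1 to 60: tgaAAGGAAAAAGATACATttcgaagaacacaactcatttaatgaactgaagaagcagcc
HMMR, bases 1 to 60: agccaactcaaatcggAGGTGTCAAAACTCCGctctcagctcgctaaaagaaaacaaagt

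The shared stretches were short. The brighter ECT2 probe shared 16 bases with a CDKN2C probe and the dimmer one 14 bases with an SH2D4A probe, and over the 13 member probes the longest shared stretch ran from 13 to 17 bases. Both ECT2 probes were placed by the scanner output on canine chromosome 34, at positions 39963853 to 39963912 and 39964003 to 39964062, with starts 150 bases apart. The genome build behind these positions is not given in the sources used here. The NUSAP1 probe was placed on chromosome 30 over 4775 bases, from 11413281 to 11418055, and the HMMR probe on chromosome 4 over 5703 bases, from 50946954 to 50952656. Of their 60 bases the member probes held 21 to 27 G or C, the brighter ECT2 probe 25 and the dimmer one 21.

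A level here is the log2 of the normalized spot intensity. Levels of different probes are not set against each other, since probes differ in brightness for reasons other than RNA amount. Between 59.4% and 74.8% of the spots of an array were well above background. A probe was called when its Benjamini-Hochberg adjusted p over all probes (limma) was under 0.01 and its fold at least 2. In bulk tissue such as this, fewer cells of a type and less RNA per cell cannot be told apart.

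The first question was whether the reference classes differ in these genes. Of the 9 genes measured, 8 had at least 1 probe called higher in undifferentiated than in differentiated reference MCTs. In all, 11 of 13 member probes (84.6%) were called, all 11 of them higher, against 783 of 43580 probes, or 1.8%, in either direction and 0.939% higher over the whole array. Their log2 fold changes lay between 1.78 and 3.30. The 2 probes not called were the brighter ECT2 probe and the HMMR probe. The members were chosen with earlier results of these data known. This share, and the later counts set against all probes or names, therefore describe a chosen set and are not independent evidence. PRC1 and NUSAP1 were in addition chosen as markers by the study on these samples.

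**Figure D1:**
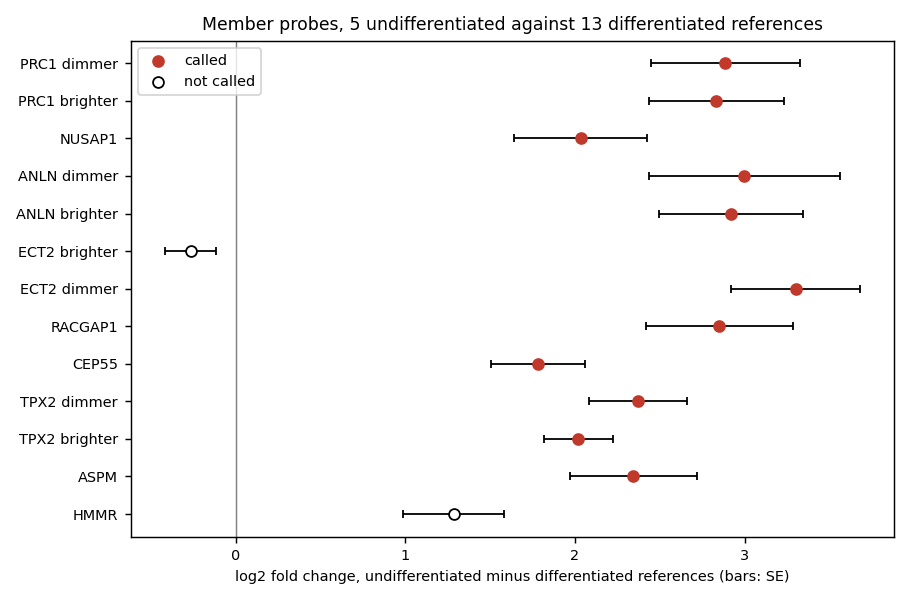
Log2 fold change of each of the 13 member probes, 5 undifferentiated minus 13 differentiated reference tumors (x axis, log2 scale), with bars for the standard error. Filled points are called probes: 11 lie between 1.78 and 3.30, HMMR lies at 1.28 and the brighter ECT2 probe at -0.27, both not called.

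Among the genes of the midzone itself, PRC1 gave the same picture with both probes. The brighter probe stood at 10.51, 10.89, 10.44, 10.66 and 11.01 in the undifferentiated tumors T9, T57, T73, T90 and LM0, and at 6.202 to 9.19 (median 7.96) in 12 differentiated tumors, the spot of T112 having been flagged and dropped. No undifferentiated tumor was as low as any differentiated one. The means were 10.70 ± 0.25 (SD, n = 5) and 7.87 ± 0.90 (SD, n = 12), a log2 fold change of 2.83 (SE 0.40, limma adjusted p = 0.000498) or 7.13-fold. The dimmer PRC1 probe, with the spots of T9 and T48 flagged and dropped, gave 2.89 (SE 0.44, limma adjusted p = 0.00108), its lowest undifferentiated level 1.29 above the highest differentiated one.

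RACGAP1 was at 8.93, 9.06, 8.10, 8.13 and 9.18 in T9, T57, T73, T90 and LM0 and at 4.12 to 7.81 (median 5.88) in the 13 differentiated tumors. The groups did not overlap, with T84 the nearest differentiated tumor. The log2 fold change was 2.85 (SE 0.43, limma adjusted p = 0.000779), or 7.21-fold.

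ECT2 was read by probes that disagreed. The dimmer probe stood at 8.35, 9.07, 7.69, 9.42 and 9.35 in T9, T57, T73, T90 and LM0 and at 4.30 to 6.66 (median 5.55) in the differentiated tumors, where it was well above background in 11 of 13. Its groups were apart by 1.03, and its log2 fold change of 3.30 (SE 0.38, limma adjusted p = 7.49e-05), or 9.86-fold, was the largest of the 13 member probes. The brighter probe stood at 11.61, 11.81, 11.78, 12.00 and 10.95 in the same 5 tumors and at 11.52 to 12.24 (median 11.88) in the differentiated ones. LM0 lay below every differentiated tumor and the other 4 inside their range. The log2 fold change of -0.27 (SE 0.15, limma adjusted p = 0.306) did not pass the test, and without LM0 it was -0.10 (limma adjusted p = 0.721). It was saturated on no array. The level of ECT2 RNA is therefore uncertain on these arrays, and each ECT2 value below is given with its probe.

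**Figure D2:**
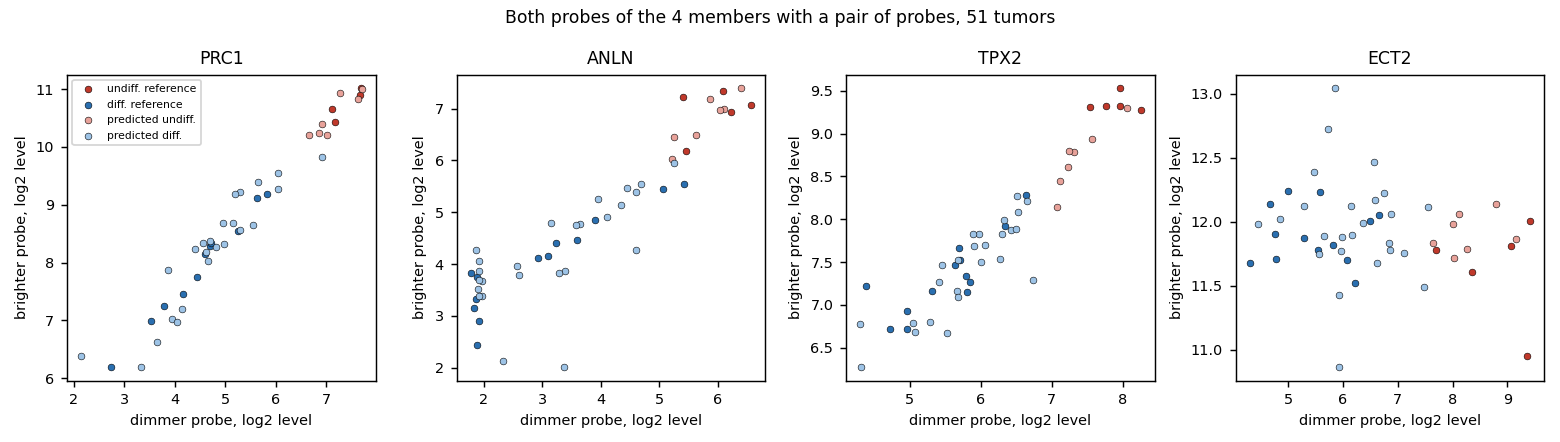
Level of the brighter probe (y axis, log2) against that of the dimmer probe (x axis, log2) of PRC1, ANLN, TPX2 and ECT2, 1 point a tumor, colored by class. The points of PRC1, ANLN and TPX2 rise along a line, while for ECT2 the brighter probe stays between 10.87 and 13.04 over the whole range of the dimmer one.

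The probes of each of the other 3 genes with a pair moved together from tumor to tumor within a class. Over the differentiated reference tumors, Pearson's r between both probes was 0.99 for PRC1, 0.92 for ANLN and 0.82 for TPX2, and it was -0.03 for ECT2 (n = 11 for PRC1 and 13 for the others). Over the tumors predicted as differentiated it was 0.93, 0.70, 0.85 and -0.14 in that order, over 24 tumors for PRC1 and 25 for the others. These are descriptions without a test, and the points share their array.

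ANLN, the scaffold of the contractile ring, was among the members with the widest gap between means. Its brighter probe stood at 7.23, 7.08, 6.19, 6.93 and 7.33 in T9, T57, T73, T90 and LM0 and at 2.44 to 5.55 (median 4.12) in the differentiated tumors, where only 5 of 13 arrays measured it well above background. The log2 fold change was 2.92 (SE 0.42, limma adjusted p = 0.000523). The dimmer probe gave 3.00 (SE 0.56, limma adjusted p = 0.00355), was well above background in 4 of 13 differentiated tumors, and overlapped between groups by the single tumor T101, at 5.42 against 5.40 in T9. The lowest levels of both probes are near background and their folds are correspondingly imprecise.

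CEP55, of the midbody, stood at 7.32, 7.20, 5.63, 6.79 and 7.38 in T9, T57, T73, T90 and LM0 and at 4.06 to 5.82 (median 5.26) in the differentiated tumors. One undifferentiated tumor, T73, lay inside the differentiated range, below T48 at 5.82. The log2 fold change was 1.78 (SE 0.28, limma adjusted p = 0.00088), or 3.44-fold, the smallest of the called probes.

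TPX2, which drives microtubule assembly around chromosomes, had with its brighter probe the smallest SD of the 13 member probes among undifferentiated tumors. This probe stood at 9.31, 9.32, 9.53, 9.32 and 9.28 in T9, T57, T73, T90 and LM0, an SD of 0.10, and at 6.71 to 8.29 (median 7.27) in the differentiated tumors. The log2 fold change was 2.02 (SE 0.20, limma adjusted p = 3e-05). The dimmer probe, with an SD of 0.27 in undifferentiated tumors, gave a log2 fold change of 2.37 (SE 0.29, limma adjusted p = 0.000123), and neither probe had overlapping groups.

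ASPM, at the spindle poles, stood at 8.13, 9.05, 8.11, 8.55 and 9.80 in T9, T57, T73, T90 and LM0 and at 5.06 to 7.74 (median 6.36) in the differentiated tumors. The groups did not overlap, and the log2 fold change was 2.34 (SE 0.37, limma adjusted p = 0.00107), or 5.08-fold.

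NUSAP1 was dim in most tumors. It stood at 4.49, 4.59, 4.10, 5.02 and 5.39 in T9, T57, T73, T90 and LM0, well above background in all 5, and at 1.66 to 4.41 (median 2.81) in the differentiated tumors, where 1 of 13 arrays measured it well above background. The differentiated tumor T55 at 4.41 lay above T73 at 4.10. The log2 fold change was 2.03 (SE 0.39, limma adjusted p = 0.0042), and since most of its differentiated levels lie near background the fold is imprecise.

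HMMR stood at 7.55, 6.88, 6.75, 7.97 and 8.87 in T9, T57, T73, T90 and LM0 and at 5.59 to 7.06 (median 6.40) in the differentiated tumors. T57 and T73 lay inside the differentiated range and the other 3 above it. The difference of 1.28 (SE 0.30, limma adjusted p = 0.0139) missed the threshold. Without T57 it was 1.46 (limma adjusted p = 0.00738) and without T73 1.498 (limma adjusted p = 0.00781), both past it, while without LM0 it was 0.97 (limma adjusted p = 0.0444).

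Counted by overlap, 8 of the 13 member probes had every undifferentiated tumor above every differentiated one, against 0.88% of the 41159 probes measured in at least 4 undifferentiated and 12 differentiated reference tumors. The 5 with overlap were NUSAP1, the dimmer ANLN probe, the brighter ECT2 probe, CEP55 and HMMR.

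**Figure D3:**
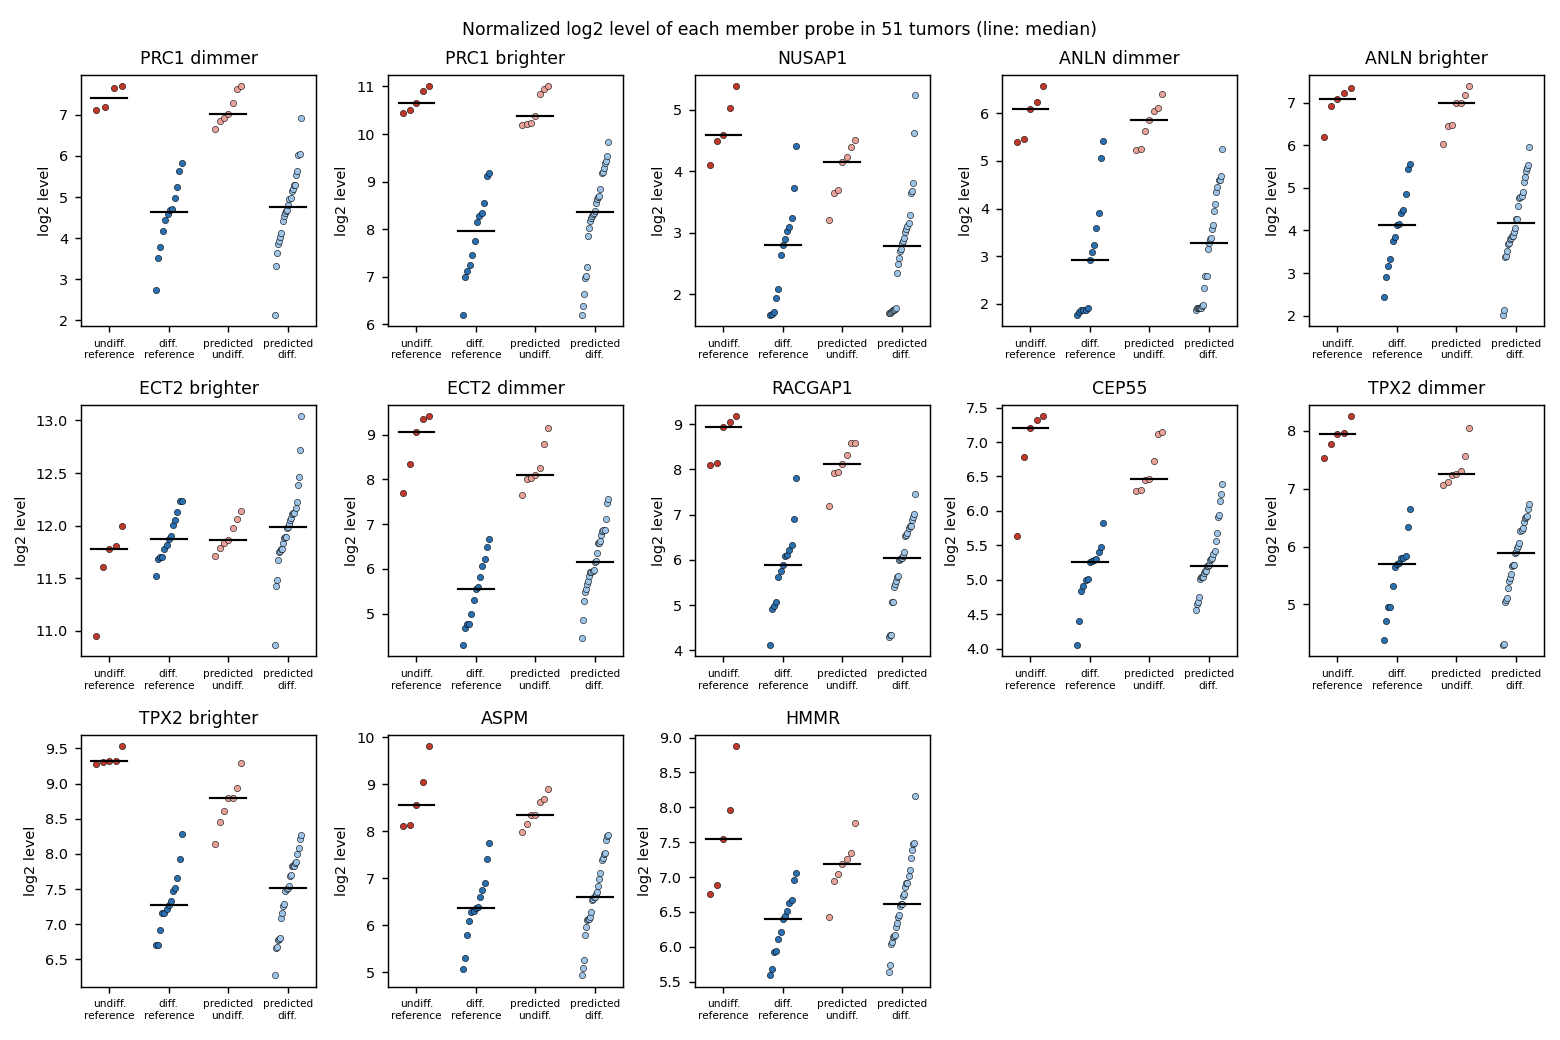
Level of each member probe (y axis, log2 of normalized intensity) in the 51 tumors, 1 point a tumor, in 4 groups: undifferentiated and differentiated reference tumors and tumors predicted as either class, with a line at the median. In 8 panels all undifferentiated reference points lie above all differentiated reference points, while in the panel of the brighter ECT2 probe the medians of the 4 groups lie close together and LM0, at 10.95, lies below every differentiated reference tumor.

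Slide and scan session were looked at as batches, a session here being a scan date in the file headers. The arrays came from 15 slides scanned in 9 such sessions. Within each of the 4 sessions that held both reference classes, 1 undifferentiated tumor was set against 1, 2, 2 and 4 differentiated ones, and every called member probe with a value was higher in the undifferentiated tumor, by 0.94 to 4.32. The same held in both slides that held both classes, by 1.40 to 4.39. Of these slides, 1 compared the same tumors as 1 of the sessions. The probes were called on these same tumors, and 8 of them had no overlap between the classes. For those 8 the direction within a batch was fixed in advance. With the scan session as a fixed block 6 member probes were called and with the slide as a fixed block 1 was, fits in which only the shared batches carry the difference. The log2 fold changes of the 11 called probes then lay between 1.66 and 3.77 with the slide as a block.

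The calls of the dimmest probes did not hold without T90 or without LM0. Without T90, 9 member probes were called, and without LM0 9 as well, NUSAP1 and the dimmer ANLN probe missing the threshold in both cases. The dimmer ANLN probe was then at 2.93 (limma adjusted p = 0.0108) and 2.96 (limma adjusted p = 0.0119). NUSAP1 was at 1.96 (limma adjusted p = 0.0133) and 1.87 (limma adjusted p = 0.018). LM0 was matched to its reference class by elimination, since its label carries no case number of the reference table, and without it the called probes kept log2 fold changes of 1.66 to 3.16.

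The genes that work with the members were read from lists, 1 probe a gene, beside all 35594 names tested, whose median log2 fold change was 0.03 and of which 0.95% were called higher. Of the midzone kinesins, the chromosomal passenger complex and PLK1, 6 of 9 measured genes were called, all higher, with a median log2 fold change of 1.18. BIRC5 (survivin), the passenger subunit that targets the complex, rose by 2.40 (SE 0.36, limma adjusted p = 0.000824) with 1 of its 2 probes called. KIF4A, a kinesin that limits the length of midzone microtubules with PRC1, rose by 2.14 (SE 0.39, limma adjusted p = 0.0035). PLK1, the kinase that licenses ECT2 recruitment, rose by 1.55 (SE 0.24, limma adjusted p = 0.00107), and AURKB, the kinase of the passenger complex, by 1.18 (SE 0.23, limma adjusted p = 0.00563).

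KIF23, the kinesin partner of RACGAP1 in centralspindlin, differed by 1.11 (SE 0.32, limma adjusted p = 0.0443) and was not called. The other genes of this list not called were KIF20B, a kinesin of late mitosis, and CDCA8 (borealin), a passenger subunit. KIF20B was at 0.69 (SE 0.32, limma adjusted p = 0.206) and CDCA8 at 0.48 (SE 0.27, limma adjusted p = 0.318). CDCA8 is itself a marker gene of the study. By quantitative PCR the study found it higher in undifferentiated tumors, reference and predicted together. It also reported a positive correlation between array and PCR levels of CDCA8. Whether the study used the probe read here, and why the results differ, was not tested. KIF20A, the midzone kinesin that carries the passenger complex, was not well above background in any of the 13 differentiated tumors and was so in 3 of 5 undifferentiated ones. Its log2 difference was 2.02 (SE 0.39, limma adjusted p = 0.00592), imprecise since it was not well above background in most reference tumors. With differentiated levels raised to at least the lowest signal well above background on each array, the fold between means was 2.25. This is no strict lower bound, since the undifferentiated mean includes tumors not well above background. The calls of KIF20A, AURKB and KIF4A were lost when single reference tumors were left out, AURKB's without T9, T73 or LM0 in turn and KIF4A's without T9 or T73. With normexp background correction KIF4A, at 0.98, and KIF20A, at 0.33 on the log2 scale, fell short of the fold of 2. MKI67 was matched to no probe.

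Among partners in spindle assembly, 11 of 17 measured genes were called, all higher, with a median of 1.56. DLGAP5, which stabilizes kinetochore fibers, rose by 3.70 (SE 0.37, limma adjusted p = 3e-05), the motor KIF11, which separates the spindle poles, by 3.28 (SE 0.48), CKAP2L by 3.15 (SE 0.43) and SPAG5 (astrin) by 3.08 (SE 0.44). Of the proliferation markers, 3 of 4 were called higher, with a median of 2.36. TOP2A, the topoisomerase that untangles sister chromatids, rose by 3.37 (SE 0.49, limma adjusted p = 0.000512), cyclin A2 (CCNA2) by 3.35 (SE 0.45) and the replication clamp PCNA by 1.37 (SE 0.25). With the scan session as a fixed block, TOP2A (limma adjusted p = 0.0153), PCNA (0.015), AURKB (0.038) and KIF20A (0.0473) lost their calls. With the slide as a fixed block every called gene named from these 3 lists lost its call except DLGAP5, with limma adjusted p from 0.0101 for KIF4A to 0.212 for AURKB, and so did DIAPH3, described next (0.049).

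The lists of the cleavage furrow and of abscission hold none of the members. In the list of the contractile ring and RhoA signalling, 1 of 11 measured genes was called, with a median of 0.10. This was the formin DIAPH3, which nucleates actin filaments under RhoA and rose by 2.22 (SE 0.30, limma adjusted p = 0.000291). None of the 6 septins, the filament proteins that bind anillin, was called (median -0.30), and none of the 17 genes of the abscission machinery (ESCRT), which CEP55 recruits, was (median 0.12). Against the 0.95% of all names called higher, counts this low in lists of this size are not a result about these genes. CHMP4B, an ESCRT filament subunit singled out after its values were seen, was at -0.87 (SE 0.13, limma adjusted p = 0.000589), under the fold of 2 needed for a call.

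**Figure D4:**
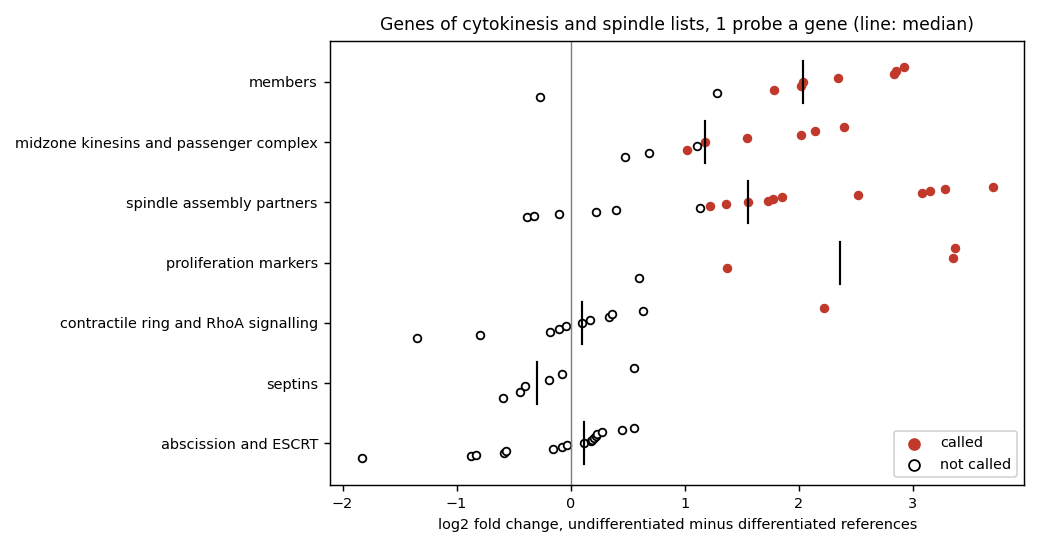
Log2 fold change, undifferentiated minus differentiated reference tumors (x axis), of the genes of 7 lists, 1 probe a gene, with filled points for called genes and a line at each list's median. The medians of the members and of the midzone, spindle and proliferation lists lie between 1.18 and 2.36, those of the contractile ring, septin and abscission lists between -0.30 and 0.12.

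Markers of the cell types that such tissue can hold were read beside these results. The 4 of 10 mast cell markers matched to a probe were CMA1, MS4A2, FCER1A and HPGDS. These 4 were well above background in all 18 reference tumors and none was called. Their mean level lay between 14.41 and 16.31 in undifferentiated and between 14.64 and 16.05 in differentiated tumors. None of 7 T cell, 5 endothelial or 5 epidermal markers was called. All 5 epidermal markers were at lower means in undifferentiated tumors, with a median log2 difference of -2.29 (SE 2.16 for the marker at that median). Of the 5, only 2 were well above background in all 18 reference tumors, so these differences are imprecise. The list's mean level ran from 4.10 to 12.71 in undifferentiated and from 3.67 to 14.53 in differentiated tumors. Of 6 macrophage markers CSF1R fell by 1.92 (SE 0.39, limma adjusted p = 0.00651), with 1 of its 2 probes called, and the mean level of the list ran from 9.07 to 10.55 in undifferentiated and from 9.56 to 11.20 in differentiated tumors. Of 6 stromal markers DCN (decorin) fell by 1.38 (SE 0.20, limma adjusted p = 0.00219), also with 1 of 2 probes called, and the mean level ran from 10.84 to 14.25 and from 11.90 to 15.38. Without T9 neither was called, nor in the authors' table, where DCN was at -0.84 (limma adjusted p = 0.0332), nor with slide or scan session as a fixed block. CSF1R was also not called without LM0, T55, T84, T88, T92 or T101 in turn, and DCN not with flagged spots kept, at -0.84 (limma adjusted p = 0.0337). The 2 neutrophil markers found, S100A8 and S100A9, were higher by 3.13 (SE 1.37) and 3.19 (SE 1.48) and were not called. Their mean level ran from 8.38 to 16.92 in undifferentiated and from 7.19 to 15.25 in differentiated tumors. The mean level of a list in a tumor was taken over the probes whose spots were kept there. The brightest stromal probe kept its spot in a single undifferentiated tumor, so the stromal ranges of the classes do not compare like with like. The part of these cell types in the differences of the member genes was not tested.

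Among the 13 differentiated reference tumors, the study's reference table recorded mitoses in 3 and none in 10. Those 3 (T84, T130 and T131) were all of Patnaik grade 2, while the 10 were of grade 1 or 2. T130 and T131 also shared a slide. The comparison is therefore mixed with grade and in part with slide. No probe on the array was called between these groups (0%), with 8.57% of all probes at an unadjusted p under 0.05. Of the 13 member probes, 11 were higher in the 3 tumors with mitoses and 0 were called, with 2 at an unadjusted p under 0.05 and a median log2 difference of 0.68. RACGAP1 stood at 7.81, 6.32 and 6.22 in T84, T130 and T131 against 4.12 to 6.90 (median 5.69) in the 10 others, a difference of 1.24 (SE 0.50, limma adjusted p = 0.54). HMMR stood at 6.95, 6.51 and 7.06 in the same tumors against 5.59 to 6.67 (median 6.16), a difference of 0.68 (SE 0.23, limma adjusted p = 0.497). T84 was the highest of the differentiated reference tumors for RACGAP1, ASPM, both TPX2 probes, both PRC1 probes and the dimmer ECT2 probe.

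In the tumors without a reference class, 12 of the 13 member probes had a higher median in the 7 tumors predicted as undifferentiated than in the 26 predicted as differentiated. This is a description, since the prediction used these arrays. RACGAP1 ran from 7.19 to 8.59 (median 8.12) in those 7 tumors and from 4.30 to 7.46 (median 6.04) in the 26 predicted as differentiated. The dimmer ECT2 probe ran from 7.65 to 9.15 (median 8.11) and from 4.45 to 7.55 (median 6.15), with no overlap. The brighter ECT2 probe ran from 11.71 to 12.14 (median 11.87) and from 10.87 to 13.04 (median 11.98), so that the 7 lay inside the range of the 26. HMMR ran from 6.43 to 7.78 (median 7.19) and from 5.64 to 8.16 (median 6.61), and NUSAP1 from 3.21 to 4.50 (median 4.15) and from 1.68 to 5.24 (median 2.78), both with wide overlap.

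Some of the 7 tumors predicted as undifferentiated lay below the range of the undifferentiated reference tumors. The brighter TPX2 probe was under the lowest undifferentiated reference tumor in 6 of the 7, the dimmer TPX2 probe in 5 and each PRC1 probe in 4. For CEP55 this was so in 0 of the 7. Taking the 11 called probes and the highest differentiated reference tumor as a mark, the 7 tumors exceeded it at 8 to 11 probes (median 10), and the 5 undifferentiated reference tumors at 9 to 11. The 11 probes were called on those 5 tumors, so their count was largely fixed in advance. PRC1 and NUSAP1, among the 11, also served to predict the class of the 7.

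The 26 tumors predicted as differentiated were spread more widely. Of these, 16 exceeded that mark at none of the 11 called probes. The other 10 did so at 1 or more, the highest being T58 at 7 probes, T47 at 5 and T87 and T103 at 4 each. T58 stood at 9.83 for the brighter PRC1 probe, 7.46 for RACGAP1, 7.93 for ASPM and 7.55 for the dimmer ECT2 probe, the highest of the 26 for each of these, and at 2.70 for NUSAP1, near the median of its class. T47 had the highest NUSAP1 level of the 26, at 5.24.

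Whether the members vary together within a class was asked in the 13 differentiated reference tumors, with 1 probe a gene, the brighter one. Of 36 pairs, 11 were correlated at an adjusted p under 0.05 (permutation test, two-sided, 100000 resamples, Benjamini-Hochberg over the 36 pairs), all 11 positively. PRC1 and ANLN gave Pearson's r = 0.96 and Spearman's rho = 0.94 (n = 12, permutation p = 1e-05, the smallest these resamples can give, and 2e-05, adjusted p = 0.00018 and 0.00024), with r = 0.93 without the 2 tumors farthest from the PRC1 median. RACGAP1 and ASPM gave r = 0.92 and rho = 0.94 (n = 13, permutation p = 1e-05 for both, adjusted p = 0.00018 and 0.00024), with r = 0.83 without the 2 farthest tumors. These points share an array, so anything that shifts an array as a whole moves both genes of a pair.

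No pair of the brighter ECT2 probe, of HMMR or of CEP55 passed. The 8 pairs of the brighter ECT2 probe had r between 0.01 and 0.59, while with the dimmer ECT2 probe, an alternative chosen after seeing the data, r ran from 0.41 to 0.90 and 5 of 8 passed. The 8 pairs of HMMR had r between 0.01 and 0.51, and those of CEP55 had r between 0.14 and 0.52. NUSAP1 passed with TPX2 only (r = 0.75, rho = 0.84, n = 13, permutation p = 0.00309 and 0.00068, adjusted p = 0.0111 and 0.00355), and without the 2 tumors farthest from its median r was 0.76. Over the 26 tumors predicted as differentiated, as a description, CEP55 had a median r of 0.66 with the other genes, HMMR of -0.0015 and the brighter ECT2 probe of -0.05.

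**Figure D5:**
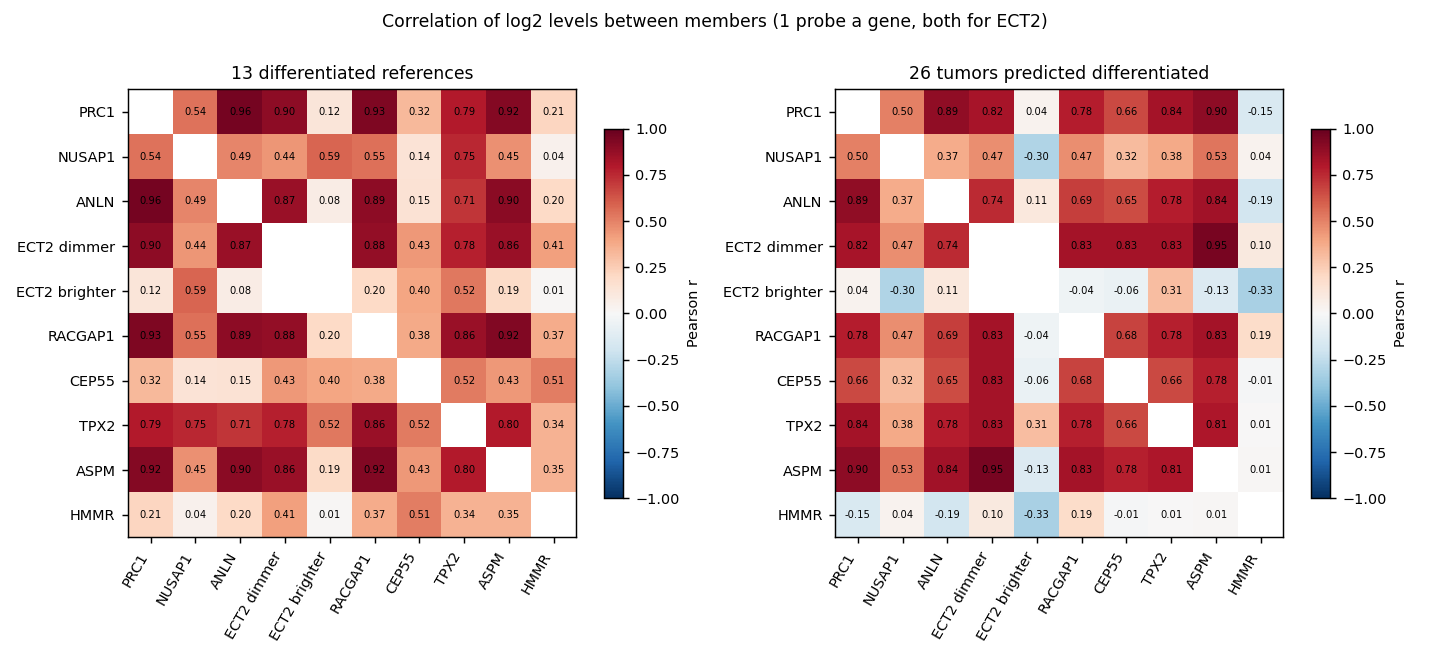
Pearson correlation of log2 levels between members, 1 probe a gene and both for ECT2, over the 13 differentiated reference tumors (left) and the 26 tumors predicted as differentiated (right), from -1 in blue to 1 in red. PRC1, ANLN, RACGAP1, ASPM and the dimmer ECT2 probe reach 0.86 to 0.96 with each other on the left, while the brighter ECT2 probe and HMMR stay at or under 0.59 on the left and at or under 0.31 on the right.

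The genes outside the members whose levels were most like the members' mean over the 33 tumors without a reference class were CCNA2, CCNB2, BUB1B, DLGAP5 and SHCBP1, among 19498 probes searched. Within the 26 tumors predicted as differentiated their r with the members' mean was 0.97, 0.96, 0.93, 0.94 and 0.92. All 5 were also higher in the undifferentiated reference tumors, by 2.86 for BUB1B to 3.71 for SHCBP1 on the log2 scale, with limma adjusted p of 0.000246 and 0.000838. They were picked for likeness to the members over tumors of both predicted classes, and CCNB2 is itself a marker gene of the study. A rise like that of the members was therefore in part built in.

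Sex and age were taken from the labels. Between 19 male and 30 female dogs, 11 probes on the array were called (0.0252%) and 0 of the 13 member probes. Of the 13, 12 were higher in males, the brighter ECT2 probe being the exception, with a median log2 difference of 0.70. Of these, 6 had an unadjusted p under 0.05, against 6.13% of all probes, and the lowest adjusted p was 0.814 (limma). Males were 7 of the 11 tumors with a known sex in the undifferentiated class, reference or predicted, and 12 of the 38 in the differentiated class. With that class as a covariate the RACGAP1 difference went from 0.85 (SE 0.36) to 0.31 (SE 0.24), and that of the brighter PRC1 probe from 0.72 (SE 0.39) to 0.15 (SE 0.27). HMMR went from 0.52 (SE 0.18) to 0.36 (SE 0.17). Most of these classes were predicted from these same arrays, with PRC1 and NUSAP1 among the markers, so the values with class as a covariate, for sex and for age, are a description and a smaller difference was in part fixed by the prediction.

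With age, over the 49 dogs whose age was given, no probe on the array was called (0%), with 2.47% of all probes at an unadjusted p under 0.05. None of the 13 member probes was called. Of their slopes 12 were above 0, and that of the dimmer ANLN probe alone had an unadjusted p under 0.05. Its slope was 1.59 (SE 0.78) in log2 level over 10 years (limma adjusted p = 0.9999). With the class as a covariate it was 0.65 (SE 0.56), and RACGAP1 went from 0.73 (SE 0.68) to -0.14 (SE 0.46). Age differed between the classes. Its median was 10 years in undifferentiated and 7 in differentiated reference dogs, and 9.5 and 8 in those predicted as either class. The reference comparison had no covariate for age or sex.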

How the data were processed

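Total RNA of 51 tumors was labeled with Cy3 and hybridized to Agilent canine arrays, 4 to a slide. Scans were read by the authors, per the file headers, in Agilent Feature Extraction 9.5.1.1. The deposited value used is the processed signal, a background-subtracted intensity not normalized between arrays. The authors also deposited a table of intensities normalized over the 51 arrays, used as an alternative. The genome build is not given in the sources used here.

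R 4.3.3 was used, with the packages statmod 1.5.0, limma 3.58.1 and data.table (version 1.17.8). The log2 processed signal of 43803 non-control spots was quantile-normalized over the 51 arrays. Spots with an outlier flag (718 to 3291 an array) were then dropped, and spots of a probe averaged, which left 43603 probes. Plots used numpy 2.4.6 and matplotlib 3.10.9. Reference classes were joined to the arrays by the case names of the labels. Groups were compared with lmFit and eBayes, and calls needed a fold of at least 2 (over 10 years for age) with an adjusted p, over all probes, under 0.01. Names came from the scanner output or, for 3251 probes, from RefSeq (assembly UU_Cfam_GSD_1.0) through a gene ID. For genes with several probes outside the members, the probe with the highest mean level was read.

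The members and lists were chosen with earlier results of these data known. All member probes are described. Outside them the text names, per list, the called genes with the largest change (at most 4), AURKB, KIF23, KIF20A, PLK1, MKI67 and TOP2A, the 5 genes most like the members' mean and, chosen after their values were seen, KIF20B, CDCA8, CHMP4B and the mast cell and neutrophil markers found. The fit was tested on simulated data. Alternatives were 75th percentile scaling, normalization over the 18 reference arrays, normexp with an offset of 50, flagged spots kept, dim probes filtered out, slide or scan session as a block, a plain unpaired t-test, an adjusted p under 0.05, the authors' table, class as a covariate and leaving out each tumor. The number of arrays limits the precision, and probes near background give imprecise folds.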

Additional observations from a re-analysis of the deposited data

Results flagged for a closer look

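One value stood apart from the rest of its group among the 26 groups of 4 to 10 tumors that were looked at, where chance sets apart about 1 in 20. The brighter TPX2 probe in the undifferentiated reference tumors was at 9.53 in T73, against 9.32 in the next and 9.28 in the lowest of the 5, a gap that took 0.820 of the whole range. The range of the 5 was narrow, and the value lay farther from the differentiated tumors than the other 4.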

How the results depend on the processing

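Over all probes, 783 calls became 410 with normexp, 58 with the slide and 304 with the scan session as a fixed block, 1695 at an adjusted p under 0.05 and 1991 with a plain unpaired t-test at an unadjusted p under 0.01 (610 after Benjamini-Hochberg, the step nearest to the false discovery rate that the study's methods set). They were 518 to 1111 when 1 tumor was left out, the lowest without LM0. The 11 calls among member probes became 7 with normexp, which compresses dim probes and left NUSAP1, CEP55 and both ANLN probes under the fold of 2, and 1 and 6 with the slide and the scan session as fixed blocks. The count was 9 to 12 when 1 tumor was left out and 10 to 12 under every other alternative, HMMR being added with the slide as a random block (limma adjusted p = 0.00978). In the authors' table NUSAP1 was not called (limma adjusted p = 0.0506). All 11 kept their direction in every fit. The brighter ECT2 probe turned to 0.10 with the slide as a fixed block (limma adjusted p = 0.894), and the cause was not tested. No member probe was called by mitoses, sex or age under any alternative run. Some uncalled differences changed sign. By mitoses, NUSAP1 was at 1.10 in the authors' table and at -0.71 to 0.19 when 1 tumor was left out (positive without T55, T130 or T131), the dimmer ANLN probe at -0.054 to 1.54 and the brighter TPX2 probe at -0.051 to 0.51 (negative without T84). By age with the class as a covariate, NUSAP1 was at -0.034, RACGAP1 at -0.14 and the brighter TPX2 probe at -0.023. Correlated pairs were 8 to 16 of 36. The counts of 12 probes by predicted class did not change with the scaling or the authors' table, alternatives chosen after seeing the data. No paired analysis was possible because replicate numbers only name tumors of different dogs.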
